A study of Mus musculus and Rattus norvegicus with 35 samples.

Results

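The circular RNAs described here are the 3343 mouse circRNAs that the authors put in their class CBR and that carry the symbol of a host gene in the deposited abundance table. They make up 11.7% of the 28482 mouse circRNAs in that table. The members were taken by identifier from the authors' CBR list, without use of any measured value. Another 1222 CBR circRNAs have no host symbol, and the 23461 circRNAs of the other class, MEA, all of which have a host, served as the background. The sources used here do not give what the letters CBR and MEA stand for.

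A circRNA is a closed RNA loop made by back-splicing, in which the splice donor at the end of an exon is joined to the acceptor at the start of the same or an earlier exon. The read that spans this back-splice junction is the evidence for the circle. Lacking free ends and a poly(A) tail, circRNAs are known to escape most exonucleases, to be lost in poly(A) selection and to accumulate in the brain, where many come from genes of the synapse.

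The study profiled RNA of C57BL/6 mice by Illumina sequencing. Adult brain, heart, liver, lung and testis were sampled at 14 weeks, with 1 rRNA-depleted library a tissue, and at 20 weeks, with 2. Hippocampus was sampled at embryonic day 18 (E18) and postnatal days 1, 10 and 30 (P1, P10, P30), with 2 libraries a stage. Single libraries were made of 4-week hippocampal homogenate and synaptosomes and of the 4-week CA1 neuropil and somata layers, and 1 library of 14-week brain was poly(A)-selected. No genetic change or drug was given to these mice in the labels, and whether libraries of a group came from separate animals is not stated, so p-values measure only the spread between these libraries. The 27 rRNA-depleted libraries held 1200 to 42450 reads on circRNAs with a host, and 1 read was worth 0.448 to 2.14 RPM, the deposited unit of reads scaled to library size. All marker genes of the 5 tissues, 5 for brain and 4 for each of the others, were highest in their own tissue's libraries.

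Some of the members had the length of an exon circle in the annotation, and their junctions were inferred from it, without a look at the reads. For the members whose end-to-end length on mm9, the build of the deposited coordinates, equalled an exon stretch of the same gene in GENCODE M21 on GRCm38, the junction was read from that transcript. Lower case marks the last 15 bases of the donor exon and capitals mark the first 15 bases of the acceptor exon. Shown are 7 members named below, of which all but Rims2, a chosen host, lead the reads or the comparisons. Also shown are a pair of sister circles of 9930021J03Rik, which share a donor and differ in the acceptor. The last is a circle of Fat1, an atypical cadherin gene like Fat3, that is also exon 2.
Slc8a1 (exon 2): gaacgatgaaatagtGTTGGAGCAGTTGGA
Fat3 (exon 2): tagatgatgagagtgGACGGACATGTGATA
Hivep2 (exons 2 to 3): acagccagccagtagATTGGTGAATTCACC
Ptk2 (exons 2 to 4): aattcttgtcataaaGTCTCTGGGCTACAA
Nlgn1 (exon 3): tcccaactgaagatgGATATAGACCCACTG
Grm5 (exons 2 to 3): ctgtgcacacagaagGTGATTTTACCCAAA
Rims2 (exons 14 to 17): ccacagggatggaagGGTCGAAGAGAATAA
9930021J03Rik, 2 exons: agaagcacaaatctgGCACTTGAGAGAAAA
9930021J03Rik, 1 exon: agaagcacaaatctgGCTTCGGGAGCAAGA
Fat1 (exon 2): tagatgaagaaacagGTGGCCAGGAGTTAA
The Slc8a1 circle lies at chr17:82047149-82048978 on the minus strand and is the whole of exon 2 of 12, 1830 bases with coding sequence and UTR. Fat3 gives exon 2 of 26, 3306 bases at chr9:16179393-16182698, and Fat1 exon 2 of 27, 3286 bases at chr8:46035550-46038835. The Nlgn1 circle is exon 3 of 8, 811 bases at chr3:26032164-26032974. The exons of Hivep2 (177 bases in all, chr10:13724007-13786490) and Ptk2 (323 bases, chr15:73222189-73225174) are UTR in the matched transcripts. Grm5 (1003 bases, chr7:94744626-94751711) takes in coding sequence and UTR. Rims2 (403 bases, chr15:39338512-39349417) is coding throughout. The Hnrnpu circle at chr1:180253265-180255444 matched exons 4 to 6 of a transcript of 6 exons. The last of these has no splice donor in that transcript and both ends of the circle are off the MEA edges described below, so no junction is shown for it. The circles of Slc8a1, Fat3, Nlgn1 and Grm5 also have both ends off those edges, so their junctions rest on the length match alone.

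Most members were not of this kind, unlike most of the MEA class. The rule by which the authors sorted circRNAs into these classes is unknown here. Whether that rule used exon ends, and so set the contrasts of length match, edges and blocks beforehand, was not tested. The length between the ends of a member equalled an exon-start-to-exon-end distance of its host in 429 of the 3263 members whose host is in GENCODE M21, or 13.1%. Among MEA circRNAs the share was 99.0%, 23131 of 23372. The matched stretch ran from an annotated splice acceptor to an annotated donor in 409 of the 429 members, and in the other 20 it needed a transcript's start or end. The same search with the length shifted by 1 to 11 bases matched 0.429% to 0.827% of members and 1.42% to 1.90% of MEA circRNAs. The share rose with abundance: 12.3% of members under 20 reads matched, 23.9% (56 of 234) of those with 20 or more, and 46.7% (14 of 30) of those with 100 or more. Matched members held 31.0% of the members' reads. These lengths only compare distances, since no mm9 gene models were used here, and members are described without a test because they are not replicates.

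A second view used the deposited lists alone. The blocks of the deposited MEA circRNAs, with touching blocks merged, give a catalogue of edges on mm9, and each circRNA was set against the edges of all other MEA circRNAs. Of the members, 33.7% (1127) had only the upstream end, the acceptor side, on such an edge, and 29.4% (984) had only the downstream end, the donor side. Both ends lay on edges in 20 members, 0.598%, against 67.8% of MEA circRNAs. Exactly 1 end was on an edge in 63.1% of members and 15.6% of MEA circRNAs, and neither end in 36.3% and 16.7%. The catalogue was made from MEA circRNAs, so it favours that class. The 689 members (20.6%) whose hosts gave no MEA circRNA had no edge of their own host to land on, which raises the share with neither end. Where 1 end was on an edge, the other end was a median 6578 bases from the nearest edge, within 10 bases in 2 members and over 1000 bases away in 82.7%. Members with 1 end on an edge thus mostly had the other end far from any.

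**Figure D1:**
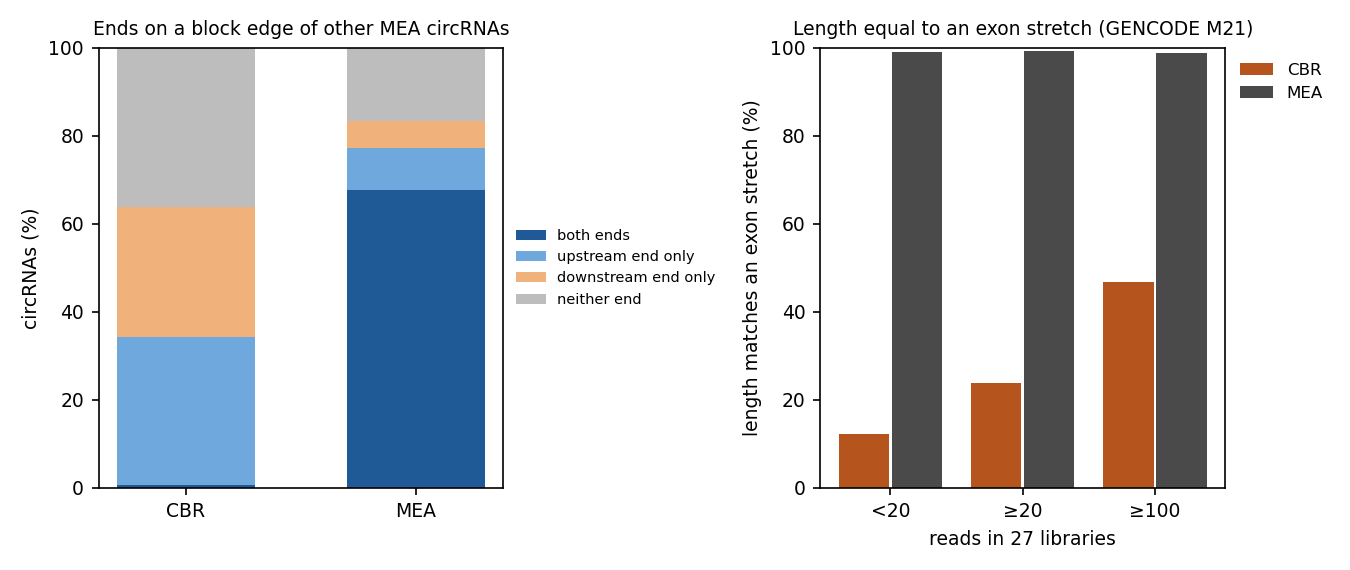
Left, percent of CBR and MEA circRNAs with both ends, only the upstream end, only the downstream end or neither end on a block edge of other MEA circRNAs. Right, percent of each class whose length equals an exon stretch of the host in GENCODE M21, by reads in 27 libraries. Both ends are on edges in 0.598% of CBR and 67.8% of MEA circRNAs, and the length match of CBR circRNAs goes from 12.3% to 46.7% with reads while that of MEA circRNAs stays near 99.0%.

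Ends off the MEA edges were in part used by more than 1 member. Of the 2196 members with the upstream end off an edge, 706 (32.1%) shared that end with another member. Of the 2339 members with the downstream end off an edge, 673 (28.8%) did so. In all, 1734 members (51.9%) shared an end with another member. The 5 Zfp62 members, from a zinc finger gene, all start at 1 upstream end and have 5 downstream ends. All 6 Fat3 members likewise share 1 upstream end, and the 5 Hnrnpu members share 1 downstream end and have 5 upstream ends. Members of 1 host that share an end are not independent of one another.

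Members were longer on the genome and had fewer, longer blocks. Their median span was 19569 bases against 11864 for MEA circRNAs, and 9.78% against 4.11% spanned over 100 kb. A single block made up 24.4% of members and 4.93% of MEA circRNAs. The summed block length had a median of 5029 bases in members and 673 in MEA circRNAs. Blocks are as deposited, and how they were set for ends away from exons was not given with the files.

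The members came from 1726 hosts, of which 1061 (61.5%) gave 1 member, 127 gave 5 or more and 19 gave 10 or more. Of these hosts 1266 (73.3%) also gave MEA circRNAs. In hosts of both classes a median of 10.6% of the host's circRNA reads fell on members (quartiles 3.62% and 31.2%), and members held the majority in 154 hosts (12.2%). The other 460 hosts gave members alone, 689 in all. Host mRNA in brain had a median of 17.9 TPM, a transcript level scaled to length and depth, for hosts with members alone, 44.9 for hosts of both classes and 35.6 for hosts with MEA circRNAs alone. Hosts with members alone were thus the lowest of the 3 sets, and 396 of the 460 had a row in the gene table.

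The host with the most members was Foxp1, a forkhead transcription factor, with 33 members from 13 upstream and 13 downstream ends. They held 291 reads, and the most abundant of them had 64, while 6 MEA circRNAs of Foxp1 held 55. Erc1, which encodes an active-zone scaffold, came next with 17 members, 16 of which matched an exon stretch and 15 of which used a donor on an MEA edge. Its 17 members used only 3 upstream ends. Nlgn1, encoding a postsynaptic adhesion molecule, gave 16 members with 487 reads, 91.5% of its circRNA reads, and the exon 3 circle alone held 301. Eif4e3, of the cap-binding protein family, gave 15 members with 66 reads, none of them matching an exon stretch. Zfp644, a zinc finger gene, gave 14 members with 536 reads, 13 of them with the upstream end on an MEA edge. A230006K03Rik gave 14 members with 153 reads and no MEA circRNA.

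Members clustered where neighbouring hosts gave many of them. In windows of 1 Mb, the median window with a member held 2. The richest, chromosome 6 from 99 to 100 Mb, held 47 members, 32 of Foxp1 and 15 of Eif4e3, and 5 MEA circRNAs. The adjoining windows of chromosome 7 from 68 to 69 Mb and from 69 to 70 Mb held 26 members each, and 0 and 1 MEA circRNAs. Their hosts include A230006K03Rik with 14 members, A330076H08Rik with 11 and the microRNA locus Mir344c with 6, all 6 ending at 1 downstream end. Host symbols are the authors', and gene models overlap in that region. These windows were chosen after their values were seen.

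Reads were few and uneven. A member had a median of 3 reads over the 27 libraries against 4 for an MEA circRNA, and 92.8% of members had under 20. The members held 30108 reads in all, and the 12 most abundant held 21.0% of them, where the 12 most abundant MEA circRNAs held 5.79% of theirs. One member, the exon 2 circle of Slc8a1, held 1528 reads, 5.08% of the total. Only 2.99% of members were seen in 14 or more libraries, against 7.67% of MEA circRNAs, and 14.6% against 7.26% were seen in 1. Every circRNA on the authors' list had at least 2 reads.

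Whether a member was seen again in the other library of its stage depended on its reads. In the hippocampus, members with 1 read in 1 library were seen in the other in 31.1% of cases, those with 2 reads in 46.2%, those with 3 to 5 in 76.9% and those with 6 or more in 96.5%. For MEA circRNAs the shares were 35.9%, 54.6%, 80.7% and 98.7%. Members were lower in each of these 4 read classes. In the 20-week tissues the same classes gave 24.2%, 40.7%, 74.0% and 98.8% for members and 28.2%, 52.8%, 80.3% and 98.6% for MEA circRNAs, so members were lower there up to 5 reads and about level at 6 or more.

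**Figure D2:**
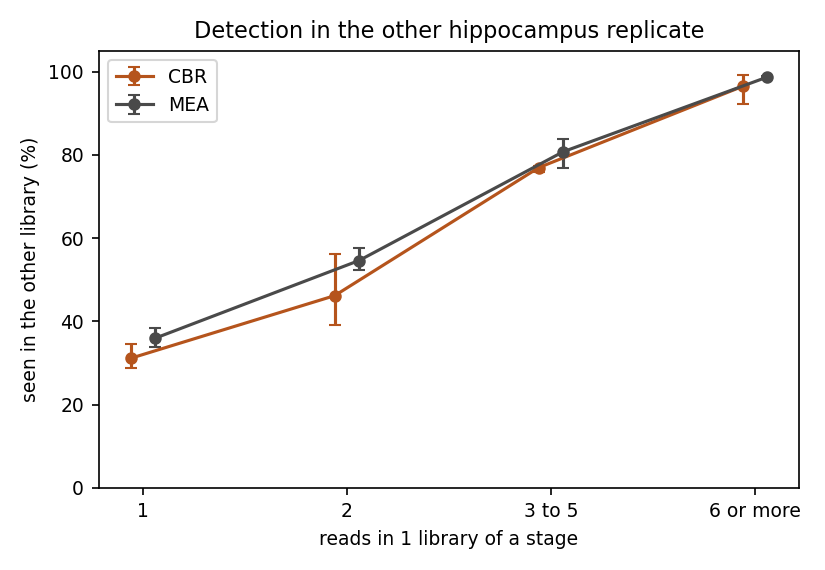
Percent of CBR and MEA circRNAs with a given number of reads in 1 hippocampus library (horizontal axis) that were seen in the other library of the stage. Points pool the 4 stages and bars span the lowest and highest stage. Members go from 31.1% at 1 read to 96.5% at 6 or more, close to MEA circRNAs.

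The members' share of the circRNA signal in brain lay within the range of the other tissues. For each tissue, values are given for the first and second 20-week library and then the 14-week one. Of the reads on circRNAs with a host, 8.01%, 7.90% and 7.15% fell on members in the brain libraries, a mean of 7.69% ± 0.466 (SD, n = 3). Across the other 12 tissue libraries the share ran from 4.24% to 9.91% with a median of 7.15%. The difference of 0.328 percentage points did not pass the test (exact permutation test, two-sided, p = 0.787, adjusted p = 0.787 over 4 comparisons).

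Among those tissues the share was highest in testis and heart. Testis libraries gave 9.03%, 9.23% and 9.04%, a mean of 9.10% ± 0.112 (SD, n = 3), and heart libraries gave 9.19%, 9.91% and 7.47%. In heart a single circle weighed heavily, since the Slc8a1 exon 2 circle made up 30.6% to 46.4% of the heart's member reads. Without it the heart share was 5.41% ± 0.137 (SD, n = 3), near the 5.64% ± 0.545 of lung and the 5.84% ± 1.40 of liver, which ran from 4.24% in the 14-week library to 6.83%. The testis and heart shares are given as values, with no test.

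Summed over all members, abundance was far higher in brain. The brain libraries held 2412, 2081 and 1755 RPM of members, and the other tissues from 66.0 to 1396 RPM with a median of 284. Every brain library was above every other tissue library, the nearest being the 14-week testis library at 1396 RPM, while the 20-week testis libraries had 536 and 600 RPM. On the log2 scale the difference corresponded to 7.99-fold (exact permutation test, two-sided, p = 0.0022, the smallest these groups allow, adjusted p = 0.00879). The test took all libraries as exchangeable, but the 12 others come from 4 tissues, so this p does not measure the spread between tissues. MEA circRNAs differed by 7.39-fold in the same libraries. In bulk tissue, more cells that make a circRNA and more circRNA per cell cannot be told apart.

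In hippocampus the members' share was higher at the later stages. It was 6.41% and 6.69% at E18, 6.86% and 6.49% at P1, 7.74% and 7.32% at P10 and 7.28% and 7.25% at P30. The 4 later libraries averaged 7.40% ± 0.227 and the 4 earlier ones 6.61% ± 0.206 (SD, n = 4 each), and the groups did not overlap. The difference of 0.783 percentage points had an exact permutation p of 0.0286, the smallest that 70 splits allow, and an adjusted p of 0.0571 over the 4 comparisons, so it did not pass after adjustment. Over circRNAs with at least 20 reads the difference was 0.512 points (exact permutation p = 0.20). Summed member abundance was 728 and 715 RPM at E18 and 1268 and 1306 at P30, but 740 and 684 at P10, and the 1.24-fold difference between late and early stages did not pass (exact permutation p = 0.371).

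**Figure D3:**
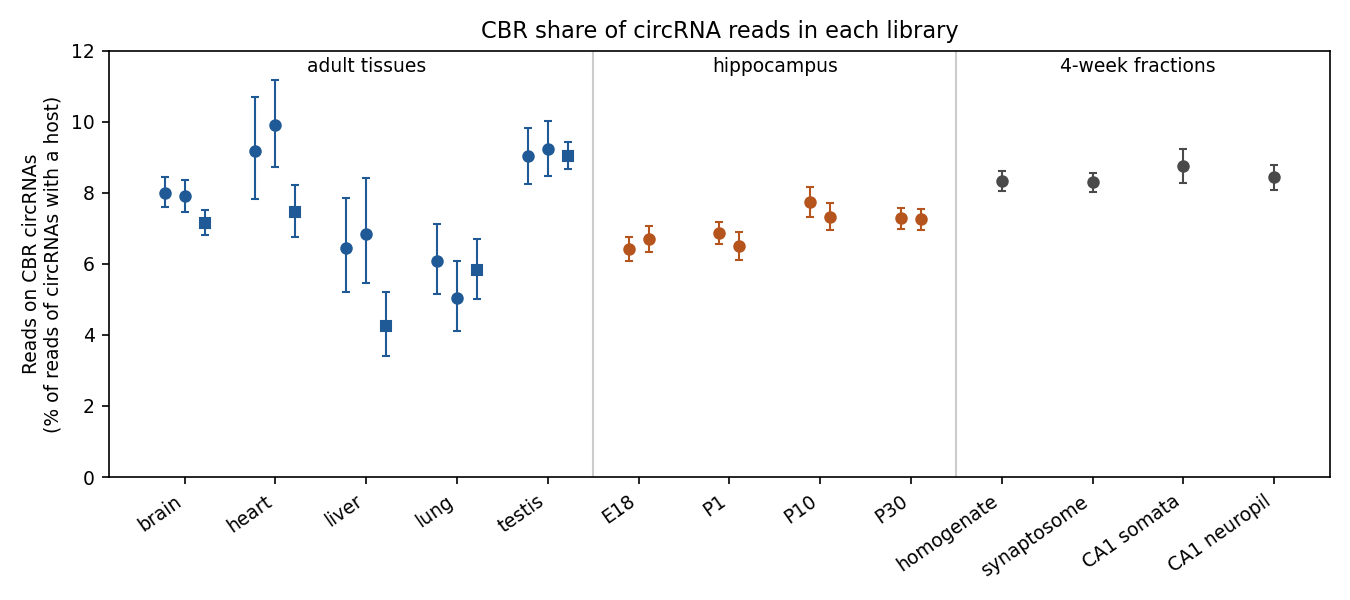
Percent of reads of circRNAs with a host that fell on CBR circRNAs, in each of the 27 rRNA-depleted libraries, with exact 95% binomial intervals that cover counting error only. Squares are 14-week libraries, and all other points are circles. Brain (7.15% to 8.01%) lies within the spread of the other tissues, the testis libraries sit between 9.03% and 9.23%, and P10 and P30 hippocampus lie above E18 and P1.

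In the fractions the members' shares lay close together, with overlapping intervals within each pair, and differences were not tested. Synaptosomes, a preparation enriched in pinched-off nerve terminals, gave 8.30% (exact 95% interval 8.04% to 8.56%) and the homogenate 8.32% (8.04% to 8.62%). Neuropil, the layer of dendrites and axons, gave 8.44% (8.09% to 8.80%) and somata 8.76% (8.29% to 9.25%). Their summed abundance was 1.46-fold higher in synaptosomes than in homogenate, as for MEA circRNAs (1.46-fold), and 1.98-fold higher in neuropil than in somata (interval 1.85 to 2.13), against 2.07-fold (2.02 to 2.11) for MEA circRNAs. Each is a single library, so the intervals compare libraries and not conditions.

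Poly(A) selection left few member reads. The selected 14-week brain library held 12 reads on members and 90 on MEA circRNAs, where the depleted one held 1493 and 19379. Scaled to RPM, members were 237-fold lower (interval 135 to 460) and MEA circRNAs 411-fold lower (334 to 511), and the intervals overlap. The 12 reads fell on 11 members. Efcab5 had 2 of them and 0 reads in the depleted library, and Zfp644, 9930021J03Rik, Foxp1 and Tmem132b had 1 each, against 8, 7, 4 and 2 in the depleted one.

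The most abundant member, the Slc8a1 circle, comes from the gene of the sodium-calcium exchanger that heart muscle and neurons use to extrude calcium. It had 141, 151 and 90.7 RPM in heart, 104, 95.8 and 35.3 RPM in brain, 0 in the 3 liver libraries, 1.24 to 9.25 RPM in lung and 1.13 to 2.87 RPM in testis. Heart and brain overlapped, and both lay above all other tissues. Host mRNA averaged 345 TPM in brain, 210 TPM over the other 4 tissues and 6.20 TPM in testis. The mean of those 4 takes heart together with liver, lung and testis, so it does not show whether brain or heart was higher. In hippocampus the circle rose from 37.0 and 49.9 RPM at E18 to 63.7 and 70.2 RPM at P30, by 0.63 ± 0.22 (SE) on the log2 scale (limma, adjusted p = 0.0272). It lost the call without the first E18 library, at 0.42, or without either P30 library (limma adjusted p up to 0.210). The difference is near the median of all circRNAs tested there, 0.62, and with library medians or totals set equal it was -0.073 and -0.059 (limma adjusted p 0.863 and 0.862).

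**Figure D4:**
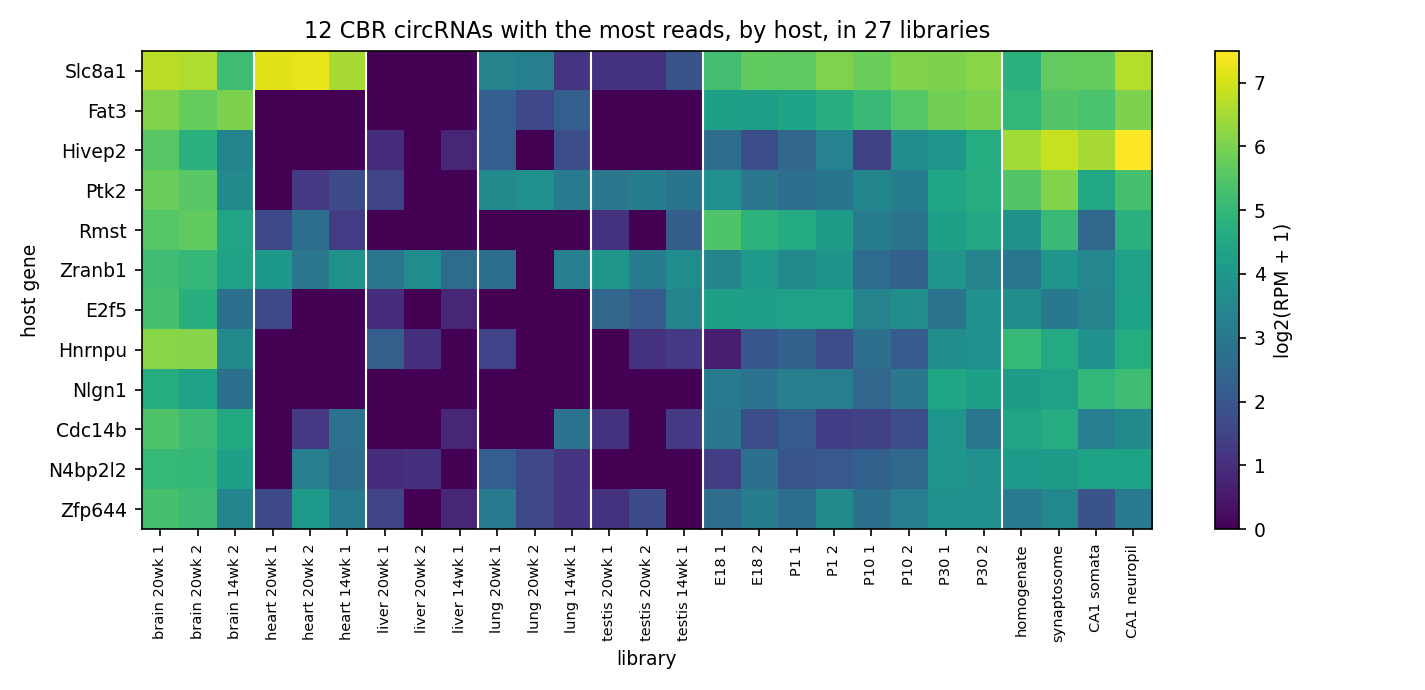
Abundance, as log2(RPM + 1), of the 12 CBR circRNAs with the most reads (rows, by host) in each of the 27 libraries (columns). The Slc8a1 circle is bright in brain and heart, Zranb1 has signal in 26 of the 27 libraries, and most others are at or near 0 outside brain, hippocampus and its fractions.

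Brain was compared with the mean of the other 4 tissues over all 842 circRNAs that had at least 20 tissue reads and were above 0 in at least 3 libraries, and 47 members were among them. At an adjusted p under 0.05 (limma on log2 of RPM plus 1.18), 35 members were higher in brain and 7 lower. Over all circRNAs tested 70.1% were higher and 7.72% lower, and over MEA circRNAs 70.7% and 6.43%. The 35 stand at 74.5% of the members tested, near that background. In 20 of the 35 the brain libraries lay wholly apart from the others, while in all 7 lower members they overlapped them. Overlap was not counted over all circRNAs called, here or in the comparisons below, so these counts are not a trait of members. The members' median log2 difference was 2.12 beside 2.06 over all circRNAs tested, so most differences below are to be read against that shift. With totals set equal, 14 members were higher and 7 lower (66.7% of the calls were then higher, before 83.3%), and with medians set equal 11 and 12 (47.8%), while the median over all tested was then 0.46 and -0.42.

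Leading the brain-high members was the Fat3 circle, from an atypical cadherin gene known for shaping neuronal dendrites. Its values were 66.7, 51.7 and 63.5 RPM in brain, and from 0 to 3.71 RPM (median 0) in the other 12 libraries, where only lung was above 0. The groups lay far apart, with a log2 difference of 5.24 ± 0.25 (limma, adjusted p = 1.73e-10). The 14-week brain library lay between the 20-week ones. The circles of Fat3 and, below, of Hnrnpu, Rmst, Zfp62, Cdc14b and Hivep2 each had fewer than 20 tissue reads outside brain. They met the read minimum only through brain, so the filter favoured their separation.

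The Hnrnpu circle comes from the gene of a nuclear RNA-binding protein. It had 70.4 and 69.0 RPM in the 20-week brain libraries but 10.6 RPM at 14 weeks, and 0 to 3.84 RPM elsewhere (log2 difference 4.51 ± 0.55, limma adjusted p = 4.21e-06). Its host mRNA averaged 493 TPM in brain and 322 TPM in the other tissues, a far smaller difference.

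Rmst, a long noncoding RNA of the nervous system, gave a circle of 10 blocks with 44.5, 49.8 and 20.0 RPM in brain and at most 5.53 RPM elsewhere (log2 difference 4.28 ± 0.41, limma adjusted p = 3.24e-07). Zfp62 had 42.6, 42.2 and 8.23 RPM in brain and up to 3.70 RPM elsewhere (4.17 ± 0.50, limma adjusted p = 3.20e-06). Cdc14b, from a phosphatase gene of the cell cycle, had 42.6, 34.5 and 22.3 RPM in brain and up to 6.18 RPM elsewhere (4.05 ± 0.58, limma adjusted p = 1.95e-05). In each of these 3 the brain libraries were above all others, and the 14-week brain library was the lowest of the 3. For Cdc14b the host mRNA averaged 13.6 TPM in brain and 24.4 TPM in the other tissues, a mean raised by testis at 59.8 TPM. Over the 4 tissues without testis, brain among them, it averaged 12.8 TPM.

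Hivep2, a zinc finger transcription factor gene, had 46.3, 26.8 and 9.41 RPM in brain and up to 3.70 RPM elsewhere (log2 difference 3.92 ± 0.44, limma adjusted p = 1.85e-06). In the 4-week fractions it was the most abundant member of all, at 86.9 RPM in homogenate, 115 in synaptosomes, 90.6 in somata and 180 in neuropil. The P30 hippocampus libraries, close in age to the homogenate, had only 14.5 and 23.8 RPM of it. Why these libraries differ was not tested.

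The circle of Nlgn1 was listed at 0 in all 12 other tissue libraries and had 24.1, 19.2 and 5.88 RPM in brain, at least 58.9-fold higher when 3 reads are allowed over the group at 0. The circle of Zfp101, a zinc finger gene, was also at 0 outside brain and had 13.0, 17.2 and 12.9 RPM in it, at least 51.8-fold higher. Both circles reached the read minimum through the brain libraries alone, so the filter itself favoured this separation. Host mRNA of Nlgn1 was itself near absent outside brain, at 0.157 TPM against 94.6 TPM. Zfp101 mRNA, in contrast, averaged 12.9 TPM there and 42.7 TPM in brain.

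Zranb1, a deubiquitinase gene, gave the most widely seen member, with reads in 26 of the 27 libraries. It had 35.2, 30.7 and 18.8 RPM in brain and 0 to 15.0 RPM (median 8.36) elsewhere, so brain was above all others, though by the modest log2 difference of 1.72 ± 0.51 (limma, adjusted p = 0.00712). That is below the median of all circRNAs tested, and with totals or medians set equal it turned to -0.86 and -0.76 (limma adjusted p 0.363 and 0.218).

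The 14-week brain library was the lowest for many members. Among the 21 members with at least 20 brain reads, 18 (85.7%) were lower in it than in both 20-week libraries, with a median ratio of 0.535 to the 20-week mean. Of 346 MEA circRNAs 173 were, with a median ratio of 0.779. One library stands on the 14-week side, so this describes libraries and not ages. Leaving out the 14-week brain library gave 21 members higher, of 32 that could then be tested, and the 20-week libraries alone gave 17 higher and 0 lower of 18.

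The 7 members called lower in brain were all listed at 0 in the 3 brain libraries: Daam1, Sp1, Ccdc30, Gm13941, Hbp1, Dzip3 and Gm13942, of which Dzip3 and Gm13942 were named because the count is small. All 7 are also among the 13 members called higher in testis below, from the same libraries, so the counts are not separate results. Their log2 differences were small, from -0.64 to -0.96, and most of the other libraries outside testis were at 0 too. None was called by edgeR on the recovered reads (0 lower, 37 higher, with 38 of the members at an unadjusted p under 0.05). Leaving out any 1 testis library also left 0, and leaving out either 20-week brain library left 2 or 4.

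Testis had members of its own. Set against the mean of the other 4 tissues, a comparison that uses the same 15 libraries, 13 members were higher in testis and 10 lower (limma, adjusted p under 0.05). Over all circRNAs 24.7% were higher and 21.6% lower, and over MEA circRNAs 23.8% and 21.3%. The members' shares of 27.7% and 21.3% were near these. In 8 of the 13 the testis libraries lay wholly apart from the others, while in all 10 lower members they overlapped them. Without the 14-week testis library 3 members were higher, and without the first or second 20-week one 7 and 6, as fewer members then reached the read minimum. The count of lower members was 6 without the first 20-week testis library.

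Daam1, a formin that builds actin filaments, gave the clearest of them. The circle had 19.3, 10.4 and 19.4 RPM in testis and was listed at 0 in all 12 other tissue libraries, so testis was at least 52.1-fold higher (limma log2 difference 3.85 ± 0.20, adjusted p = 1.72e-09). Over all 27 libraries it had reads in 4. Its host mRNA was lower in testis, at 19.6 TPM in testis and 43.3 TPM in the other tissues.

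A930001N09Rik had 20.4, 17.3 and 18.0 RPM in testis, 3.71 and 1.92 RPM in the 20-week brain libraries and 0 in the rest (log2 difference 3.78 ± 0.32, limma adjusted p = 2.83e-07). Sp1, a widely used transcription factor, had 7.93, 3.46 and 17.2 RPM in testis and 0 in every other tissue library (2.97 ± 0.28, limma adjusted p = 7.57e-07). Ccdc30 had 3.40, 9.22 and 12.9 RPM and Hbp1, a transcriptional repressor gene, 7.93, 3.46 and 12.2 RPM, both at 0 elsewhere. Testis stood apart in all of these, with folds of at least 30.4 for Sp1, 27.1 for Ccdc30 and 25.1 for Hbp1. Like Daam1 and Gm13941, these circles of Sp1, Ccdc30 and Hbp1 reached the read minimum through the testis libraries alone. A930001N09Rik, with fewer than 20 tissue reads outside testis, also met it only through testis. The filter could keep all these circles only because testis was high, so their separation is not separate evidence. Host mRNA of Ccdc30 was concentrated there too, at 1110 TPM against 27.4 TPM, whereas that of Hbp1 was 57.2 TPM against 103.

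Gm13941 had 9.06, 4.61 and 8.62 RPM in testis and 0 in all 24 other rRNA-depleted libraries. Its upstream and downstream ends were both off the MEA edges, while Daam1, A930001N09Rik, Sp1, Ccdc30 and Hbp1 each had the upstream end on an edge and the downstream end off it.

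Breadth across tissues depended on reads. Of members with 5 to 9, 10 to 19, 20 to 49 and 50 or more tissue reads (213, 86, 32 and 16 members), 42.7%, 30.2%, 28.1% and 6.25% were seen in 1 tissue, against 27.6%, 18.8%, 11.2% and 8.73% of MEA circRNAs with as many reads. The shares seen in all 5 tissues were 0.939%, 11.6%, 6.25% and 31.3% for members and 1.38%, 11.0%, 27.7% and 55.9% for MEA circRNAs. Members were thus more often in 1 tissue in the 3 classes under 50 reads, while a lower share in all 5 tissues was marked in the 2 classes from 20 reads on, which hold few members. Of the 48 members with at least 20 tissue reads, 32 (66.7%) had their highest mean in brain, 15 (31.3%) in testis, 1 in heart and none in liver or lung. Among 782 MEA circRNAs 71.9% were highest in brain, 20.3% in testis and 2.17% in heart, so the members' brain share was near that background. The 1 in heart was the Slc8a1 circle.

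In hippocampus, P30 was compared with E18 over the 1556 circRNAs with at least 20 reads in the 8 libraries that were above 0 in 2 or more, 90 of them members. At an adjusted p under 0.05 (limma on log2 of RPM plus 0.578), 24 members were higher at P30 and 5 lower, and in all 29 the libraries of the stages did not overlap. Overlap was not counted over all circRNAs called, so this is not a trait of members. Over all circRNAs 26.4% were higher and 5.72% lower, and over MEA circRNAs 25.7% and 5.83%. The members' 26.7% and 5.56% were at the background, and their median log2 difference was 0.61 beside 0.62. With totals set equal 9 were higher and 9 lower, and with medians set equal 8 and 11 (42.1% of the calls were then higher, before 82.8%), when the median over all tested was 0.05 and -0.09. Leaving out 1 library moved the count of higher members to 15 (first E18), 10 (first P30) and 9 (second P30). The count of lower members went to 1 without the first E18 library, to 2 without the second E18, first P30 or second P30, and to 3 without either P1 library.

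The tissue changed over these stages. Summed TPM of 3 oligodendrocyte markers was 23.1 to 23.7 at E18 and 6504 to 7223 at P30, that of 4 neuron markers 335 to 379 and 3729 to 3765, and that of 4 progenitor markers 256 to 310 and 35.6 to 47.9. Markers of choroid plexus, a neighbouring tissue, ranged from 17.3 to 3505 at P10 and from 342 to 1322 at P30. None of the marker genes was at 0. The part of these in the members' changes was not tested.

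The steepest gains were of circles absent or nearly so before birth. AB041803, a host with 11 members and no MEA circRNA, gave a circle listed at 0 in all 4 E18 and P1 libraries, 0.576 and 0 RPM at P10 and 5.22 and 7.94 RPM at P30, at least 7.54-fold higher than E18 (limma log2 difference 3.60 ± 0.66, adjusted p = 0.000194). Its host rose too, from 0.334 TPM at E18 to 6.49 TPM at P30. Zfp101 went from 0 and 0 RPM at E18 to 5.22 and 7.33 RPM at P30, at least 7.19-fold higher (3.55 ± 0.70, limma adjusted p = 0.000418), while its host averaged 37.1 TPM at E18 and 22.3 TPM at P30. Circles at 0 at E18 or at P30 reached the read minimum through the other stages, so the filter favoured a difference for them.

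The circle of 2 exons of 9930021J03Rik had 1.63 and 0 RPM at E18, 1.51 and 2.45 at P1, 2.88 and 3.42 at P10 and 10.4 and 9.16 at P30 (log2 difference 3.20 ± 0.62, limma adjusted p = 0.00039). Cntn5, of the contactin family of neuronal adhesion molecules, was at 0 at E18 and had 3.48 and 4.28 RPM at P30 (2.94 ± 0.64, limma adjusted p = 0.00106). It was already at 3.46 and 3.91 RPM at P10, so its P10 and P30 values overlapped. Its host mRNA stayed level, at 12.4 and 12.1 TPM.

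Grm5 encodes a metabotropic glutamate receptor of the postsynapse, and its circle climbed stage by stage. It had 1.63 and 1.25 RPM at E18, 5.02 and 4.90 at P1, 9.22 and 11.2 at P10 and 12.2 and 14.0 at P30, with no overlap between successive stages. The log2 difference of P30 from E18 was 2.76 ± 0.42 (limma, adjusted p = 2.40e-05). The host went from 115 TPM to 271 TPM.

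Hnrnpu, high in adult brain, also rose here, from 0.545 and 3.12 RPM at E18 to 12.2 and 12.8 RPM at P30 (log2 difference 2.68 ± 0.54, limma adjusted p = 0.00053), while its mRNA averaged 424 TPM and then 336 TPM. Fat3 went from 18.0 and 17.5 RPM to 59.1 and 63.5 RPM (1.76 ± 0.25, limma adjusted p = 9.90e-06), with P1 at 19.6 and 25.3 and P10 at 32.8 and 45.0 in between. Hivep2, Ptk2, the focal adhesion kinase gene, N4bp2l2 and Nlgn1 rose as well, by 2.16, 1.23, 1.94 and 1.39 on the log2 scale (limma adjusted p 0.00478, 0.0112, 0.00373 and 0.00552). Each of these calls was lost with 1 library left out: Hivep2 and Ptk2 without the second E18 or second P30 library (limma adjusted p up to 0.112 and 0.155), N4bp2l2 without the first E18 library, at 1.20, or the first P30 one (up to 0.0841), and Nlgn1 without the first P30 one (0.051).

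The 5 members that fell were Sh2d4b, A330076H08Rik, a Zfp644 circle, Ube2e3 and E2f5. Sh2d4b had 2.18 and 3.74 RPM at E18 and 0 in both P30 libraries, so E18 was at least 3.32-fold higher (limma log2 difference -2.58 ± 0.70, adjusted p = 0.00663). A330076H08Rik, in the rich region of chromosome 7, went from 3.81 and 1.87 RPM to 0 and 0, with E18 at least 3.19-fold higher (-2.50 ± 0.68, limma adjusted p = 0.00663). Ube2e3, a ubiquitin-conjugating enzyme gene, fell from 14.7 and 11.9 RPM to 8.11 and 3.66 (-1.18 ± 0.42, limma adjusted p = 0.032). E2f5, a transcription factor gene of the cell cycle, fell from 18.0 and 17.5 RPM to 6.37 and 12.8 (-0.92 ± 0.34, limma adjusted p = 0.0389). Each of these 4 calls was lost with 1 library left out. Sh2d4b and A330076H08Rik just missed the threshold without either P30 library (limma adjusted p up to 0.0548 and 0.0534). Ube2e3 was lost without either E18 library or the second P30 one, at -0.67 without the latter (limma adjusted p = 0.345). E2f5 was lost without either E18 library or the first P30 one, at -0.45 without the latter (limma adjusted p = 0.41), and was -1.40 without the second P30 library.

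Sister circles of Zfp644 parted company. The member at chr5:107047090-107048661 had 4.90 and 5.61 RPM at E18, 9.04 and 13.1 at P1, and 0.580 and 1.22 at P30, a log2 difference of -2.01 ± 0.51 (limma, adjusted p = 0.00394). The longer member at chr5:107047090-107067654 had 5.45 and 8.11 RPM at E18 and 12.7 and 12.8 at P30, a difference of 0.89 ± 0.40 that did not pass (limma, adjusted p = 0.0911). On the minus strand, these share the downstream end, which is off the MEA edges, and have different upstream ends, both on an edge. The difference between the 2 members was not tested. Host mRNA was level, at 151 and 147 TPM.

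**Figure D5:**
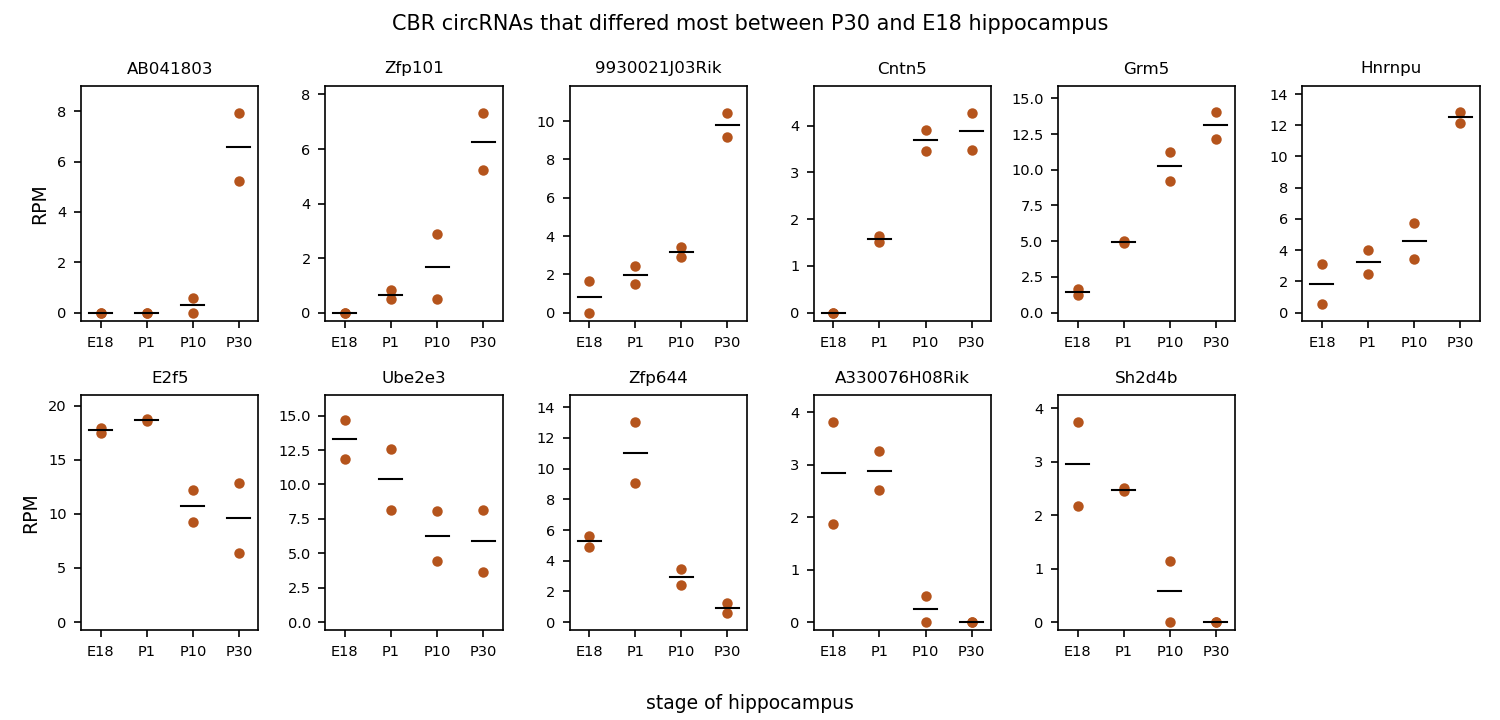
RPM of the 11 CBR circRNAs with the largest differences between P30 and E18 hippocampus in each direction, at 4 stages. Points are the 2 libraries of a stage and bars their mean, and each panel has its own axis. The upper 6 are higher at P30 and the lower 5 are lower, and all were chosen among calls with no overlap between E18 and P30.

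The circle of Rmst, high in adult brain, took another course. It was at 42.5 and 28.1 RPM at E18, 23.6 and 16.3 at P1, 8.06 and 6.36 at P10 and 18.0 and 22.0 at P30. P30 lay below E18, by a log2 difference of -0.78 ± 0.31 that just missed the threshold (limma, adjusted p = 0.0527) and passed with edgeR (-0.83, adjusted p = 0.00926). The lowest stage was P10.

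By function, the members of synaptic hosts were few among those that could be tested. Of 46 presynaptic genes, 16 hosted 72 members with 610 reads, and of 43 postsynaptic genes 17 hosted 85 members with 1031 reads. MEA circRNAs came from more of them, 33 presynaptic genes (363 circRNAs) and 37 postsynaptic genes (369). Among the presynaptic members, 1 could be tested between tissues and at the hippocampal stages. It was the circle of Rims1, an active-zone scaffold gene, with 9.27, 23.0 and 12.9 RPM in brain and at most 1.15 RPM elsewhere (limma log2 difference 3.62 ± 0.26, adjusted p = 1.97e-08) and a rise of 2.00 ± 0.60 at P30 (limma, adjusted p = 0.0139). With fewer than 20 tissue reads outside brain, this circle met the tissue read minimum only through brain, so the filter favoured its separation. Among postsynaptic members, 3 were tested at the stages and 2 of them, Nlgn1 and Grm5, were higher at P30, where 26.4% of all circRNAs tested were.

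Ion channel genes hosted 39 members in 15 of 30 genes, and the 1 tested, of the calcium channel gene Cacna1c, did not pass at P30 (0.51 ± 0.67, limma adjusted p = 0.599). RNA-binding and splicing genes hosted 24 members in 9 of 30, chromatin genes 17 in 9 of 30 and nuclear long noncoding RNAs 22 in 6 of 10. MEA circRNAs came from 28 of the ion channel genes and from 21, 24 and 4 genes of the latter lists. Myelin genes hosted 7 members in 2 of 15 and genes highly expressed in neurons 5 in 2 of 23, with MEA circRNAs from 4 and 8. Among genes typical of other tissues, 3 of 25 heart genes hosted 13 members with 1700 reads, most of them on Slc8a1, and 3 of 25 testis genes hosted 4 members. MEA circRNAs came from 8 of the heart and 12 of the testis genes. The 25 liver, 15 lung and 20 cytoskeletal genes hosted none, although 3, 3 and 5 of them hosted MEA circRNAs.

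Hosts known for abundant circRNAs differed in their members. The largest members of Rmst and Rims1, described above, held 483 and 139 reads, beside 174 and 1732 reads on MEA circRNAs of these hosts. The members of several others were smaller. Rims2, with 43 MEA circRNAs holding 2225 reads, gave 10 members with 109 reads, and the most abundant of them had 0, 3.83 and 11.8 RPM in brain. Homer1, a postsynaptic scaffold gene, gave a most abundant member of 10 reads, Dlgap1, its neighbour in the scaffold, one of 7, Zfp609 one of 7 and Tulp4 one of 4. Anks1b had 2843 reads on 41 MEA circRNAs and 43 on 10 members.

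Between single fraction libraries, the 12 most abundant members varied around the class ratio. Synaptosome over homogenate ran from 0.590 for E2f5 (interval 0.279 to 1.18) to 2.45 for Rmst (1.56 to 3.93), with a median of 1.35. Neuropil over somata ran from 1.00 for N4bp2l2 (0.505 to 1.98) to 5.63 for Rmst (2.10 to 18.9), with a median of 1.84. Rmst, from 24 reads in neuropil and 5 in somata, had the highest ratio in both pairs. These intervals cover counting error only.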

How the data were processed

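Values of 28 mouse libraries were used; per the submitters' processing notes, reads were handled with CASAVA 1.8.2, TopHat2 2.0.6 and Cufflinks 2.2.1 on mm9, with the circRNA caller not given in the sources used here. Host mRNA is in TPM as deposited by the authors. CircRNA abundance is in RPM as deposited, counted on back-splice junctions with an unstated denominator. The score column of the deposited circRNA lists was not used. All RPM values were whole multiples of 1 read (100% within 0.1), so reads were recovered, and 99.6% of totals equalled those in the deposited lists. Members, gene lists and the rule for named members (the 12 with the most reads, up to 6 a direction and contrast, up to 2 a list, the 6 richest hosts, 9 chosen hosts and 5 in the poly(A) library) were chosen with earlier results of these data known.

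Differences were fitted with limma 3.58.1 in R 4.3.3 over all circRNAs (eBayes with trend, two-sided, Benjamini-Hochberg) on log2 of RPM plus a pseudocount, the median value of 1 read, so folds of low circRNAs are understated. The script was tested on simulated data. edgeR 4.0.16 on recovered reads, other pseudocounts, filters, scalings, a replicate block and each library left out were alternatives. Exact permutation tests and intervals used scipy 1.17.1 in Python 3.11.15. The permutation tests took libraries as exchangeable, so their p-values do not measure the spread between tissues or between stages. A floor of 3 reads over a group at 0 gives each lower bound. In 4 of the 9 replicate pairs (20-week brain, heart, liver and lung) reads did not differ beyond counting error; they were kept as labelled, as separate samples. The long-read P30 library and the rat files were not analysed here.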

Additional observations from a re-analysis of the deposited data

How the results depend on the processing

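Most reads lie on few members, so depth limits what could be tested: 47 of the 3343 members between tissues and 90 in hippocampus. Whether the replicate numbers pair the samples is not stated. None of 12 same-numbered hippocampus pairs and 11 of 30 tissue pairs correlated over 0.1, which does not settle it for the tissues. With the replicate block 35 and 7 members were higher and lower in brain, 15 and 10 in testis and 24 and 6 at P30. The late-stage share difference stayed 0.783 points under the block (exact permutation p = 0.0556), and was 0.512 over circRNAs with at least 20 reads. The brain share difference turned to -0.177 with CBR circRNAs of no host added and to -0.0677 over those with at least 20 reads (exact permutation p 0.949 and 0.967). The heart share less that of the other tissues turned to -1.55 points without the Slc8a1 circle, an alternative chosen after seeing the data. Without a read minimum 187 members were higher and 22 lower in brain, 72 and 18 in testis and 101 and 24 at P30. Equal totals gave 14 higher in brain, 6 lower in testis, and 9 and 9 at P30; equal medians gave 11 and 12 in brain, 18 lower in testis, and 8 and 11 at P30. A pseudocount 5 times larger left 2 lower in brain, and one 5 times smaller 3 lower at P30. edgeR gave 0 lower in brain and 2 in testis. The 20-week libraries alone, also chosen after seeing the data, gave 17 and 0 in brain and 2 higher in testis. Leaving out each library gave 21 to 35 higher and 0 to 7 lower in brain, 3 to 15 and 6 to 10 in testis, and 9 to 25 and 1 to 4 at P30. Of single members, Zranb1 in brain turned to -0.86 and -0.76 with totals and medians equal and Slc8a1 at P30 to -0.059 and -0.073, and Zranb1 at P30 (-0.13) ran from -0.45 to 0.19 with 1 library left out, and was 0.19 and 0.16 without the second E18 or second P30 library. Calls of Slc8a1, Hivep2, Ptk2, N4bp2l2, Nlgn1, Sh2d4b, A330076H08Rik, Ube2e3 and E2f5 at P30 were also lost without 1 library. The cause of these shifts was not tested.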
